A study of Saccharomyces cerevisiae with 12 samples.

Results

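RNA polymerase II (Pol II) occupancy over every gene was read in growing WT budding yeast as the ratio of immunoprecipitated to input DNA. The description rests on the 4 WT libraries of the 12 in the series, chosen by their titles: 2 Pol II libraries and the 2 input libraries of the same replicate numbers. The other 8 libraries belong to the strains Pcf11-13 and Pcf11-DNL, which the series compares with WT, 4 libraries each. The files list 6650 genes, and 6639 of them had enough input coverage in both WT replicates to be ranked.

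All strains were haploid, of the w303 background and mating type alpha. They carried the markers ade2-1, his3-11,15, trp1-delta and ura3-1, a leu2-3 marker allele, and the deletion pcf11-delta::TRP1 in place of the chromosomal PCF11 gene. The Pcf11-13 cells had the plasmid pRS325-LEU2-pcf11-13, the Pcf11-DNL cells pRS325-LEU2--V5-pcf11-deltaN-linkMYC, and the WT cells pRS325-LEU2-V5-PCF11-MYC. WT therefore also lacked the chromosomal gene, and its only Pcf11, an essential 3'-end processing and termination factor, was a tagged protein made from a plasmid. Cultures are labelled as glucose-treated, were fixed with formaldehyde during growth, and were precipitated with 4H8, a monoclonal antibody against the C-terminal domain of Pol II. The labels call the 2 samples of a strain biological replicates.

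Pol II makes all messenger RNA. The antibody recognises the repeated tail of its largest subunit, so a ChIP signal over a gene counts polymerases that are attached to it, moving or paused, and not finished transcripts. In yeast fermenting glucose, genes for ribosomes, glycolysis and the cell wall are known to take up much of the transcription. Genes for other sugars, meiosis and the opposite mating type are known to be repressed.

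A ratio is given as log2 of Pol II over input coverage, relative to the median gene of the same pair of libraries, so 0 means the median gene and not the absence of polymerase. The median gene had a Pol II coverage of 95.8 and 101.0 in WT replicates 1 and 2, against 144 and 160 in input. Input was even over the genome, with an SD over genes of 0.28 and 0.29 (log2), while the Pol II libraries had 0.92 and 1.19. The 2 WT pairs ranked genes alike but did not have the same range. Across genes, which are not independent replicates, their ratios had r = 0.973 and rho = 0.980, and 611 of the 663 genes in the top decile of one were in the top decile of the other. The ratio spanned 26.0-fold between the 1st and 99th percentile gene in replicate 1 and 86.9-fold in replicate 2. WT replicate 1 thus stood apart, with a narrow range, and Pcf11-DNL replicate 2 had one as narrow, at 24.1-fold, against 51.0-fold to 72.4-fold in the other mutant pairs.

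**Figure D1:**
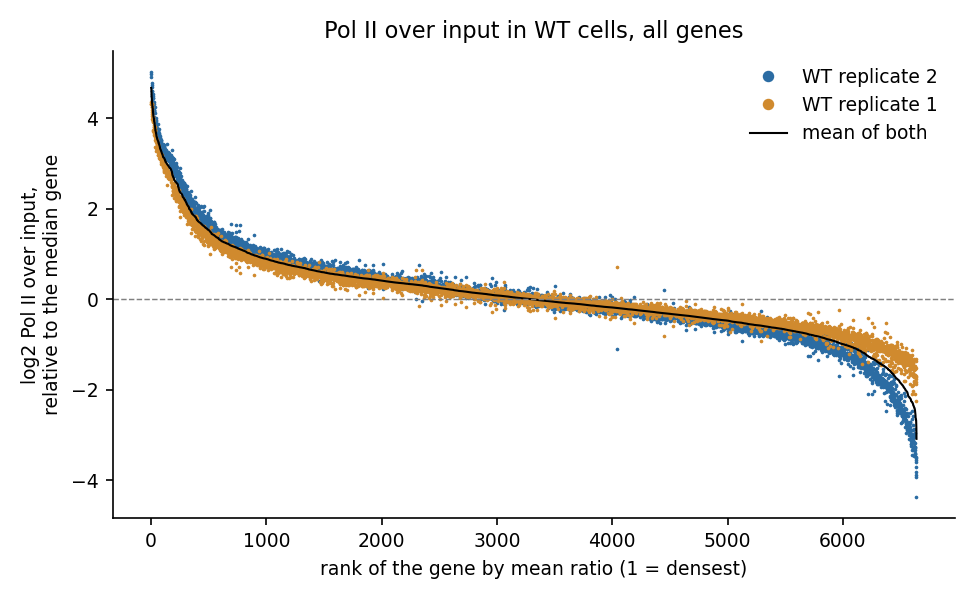
Pol II over input (vertical axis, log2, relative to the median gene) for 6639 genes ranked by the mean of the 2 WT pairs (horizontal axis). Orange and blue points are WT replicates 1 and 2 and the black line is their mean. Replicate 2 lies above replicate 1 among dense genes and below it among silent genes.

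Most genes lay near the median. The middle 50% of mean ratios ran from -0.46 to 0.53, and 10% of genes lay above 1.23. The ends were far out: the densest gene reached 4.67 and the lowest -3.08. In the limma fit, which tests each gene against the median gene, 2848 of 6639 genes (42.9%) were higher and 2762 (41.6%) were lower at an adjusted p under 0.05, and 1029 were not called. More than 2-fold above the median gene were 867 genes (13.1%), more than 8-fold above 135 (2.03%), and more than 2-fold below 623 (9.38%). Below the median gene is a statement about rank: when the pairs were centred on the meiosis and sporulation list instead, all genes moved up by 1.30 and 214 were called below. Every gene of the upper 3 deciles was called, against 29.8% and 23.2% in the 2 middle deciles. In the lowest decile 93.8% were called.

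The spread came from the precipitated DNA. Genes of the top decile had a median Pol II coverage of 336 and 464 in WT replicates 1 and 2, against an input coverage of 147 and 163. Genes of the lowest decile had 44.3 and 29.0, against an input coverage of 142 and 157. Between these ends, median input moved by less than the difference between the 2 input libraries, and median Pol II coverage moved 7.6-fold in replicate 1 and 16.0-fold in replicate 2.

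**Figure D2:**
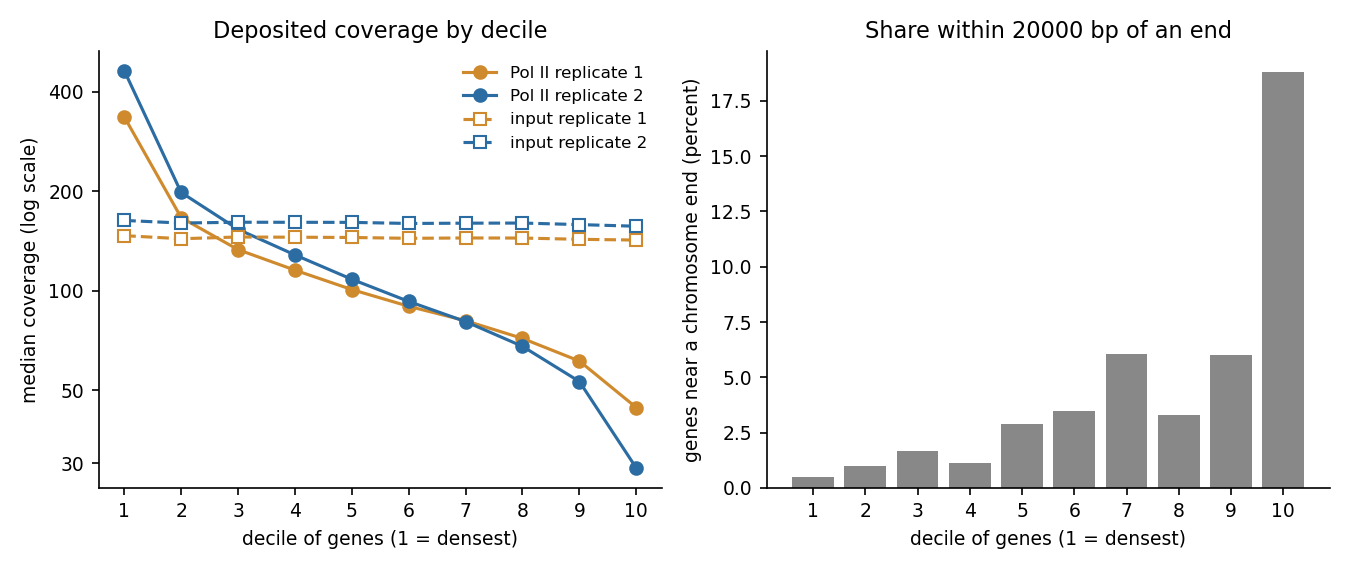
Left, median deposited coverage (log scale) of the genes in each decile of the ranking, with Pol II as filled circles and input as open squares, orange for WT replicate 1 and blue for WT replicate 2. Right, the percentage of located genes in each decile that lie within 20000 bp of the outermost annotated gene end of a chromosome, from 0.5% in the densest decile to 18.8% in the lowest.

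At the top stood genes of the cell wall, fermentation and translation. CCW12 (YLR110C, chromosome XII, 369697 to 370098) encodes a cell wall mannoprotein. Its Pol II coverage was 1791 and 3044 in WT replicates 1 and 2, against an input coverage of 135 and 148. Its ratios were 4.32 and 5.03 (mean 4.67 ± 0.50, SD, n = 2), or 25.5-fold above the median gene. PDC1, the main pyruvate decarboxylase (YLR044C, chromosome XII, 232390 to 234081), had a Pol II coverage of 2197 and 3891, against 166 and 195 in input, a mean ratio of 4.66 ± 0.47. TDH3, the main glyceraldehyde-3-phosphate dehydrogenase (YGR192C, chromosome VII, 882812 to 883810), had 2181 and 3512, against 162 and 185, a mean ratio of 4.63 ± 0.40. In all 3 genes both Pol II values lay far above both input values, and replicate 2 was the higher pair.

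The translation factor gene HYP2, which encodes eIF5A (YEL034W, chromosome V, 85676 to 86149), followed at 4.54 ± 0.33. TEF1 and TEF2, which encode the same elongation factor protein from near-identical genes whose reads cannot be told apart with certainty, had 4.30 and 4.24. The ribosomal protein genes RPL8A, RPL10, RPS31 and RPL3 had 4.42, 4.34, 4.25 and 4.15. PMA1, the plasma membrane proton pump (YGL008C, chromosome VII, 479910 to 482666), had 4.34 ± 0.49, and the enolase gene ENO2 had 4.25 ± 0.41. CCW12, PDC1 and TDH3 stood in opposite order in the 2 pairs, with 4.32, 4.32 and 4.35 in replicate 1 and 5.03, 4.99 and 4.92 in replicate 2, so their order is not resolved. HYP2, TEF1, TEF2 and RPL3 kept one order in both WT pairs, with 4.31, 4.06, 4.03 and 3.95 in replicate 1 and 4.78, 4.53, 4.45 and 4.35 in replicate 2. Because TEF1 and TEF2 can share reads, the order of these 2 genes is not resolved either.

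Some dense reading frames are best read with their neighbours, because the libraries do not separate strands. YEL034C-A ranked 5th at 4.49 and YLR076C 6th at 4.46. Neither is in the RefSeq table, and their systematic names place them beside HYP2 (YEL034W) and RPL10 (YLR075W). YDR524W-C, a frame of 90 bp on chromosome IV, ranked 10th at 4.32. These 3 were picked for their values, as were the next 3, which stood on none of the lists. ZEO1, a plasma membrane protein gene, had 4.04 ± 0.15, GCN4, the transcriptional activator of amino acid synthesis, had 3.44 ± 0.29, and ASC1, which encodes a protein of the small ribosomal subunit, had 3.09 ± 0.32.

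Of the 135 genes more than 8-fold above the median gene, 62 encode cytoplasmic ribosomal proteins, 10 act in glycolysis and fermentation, 5 are histone genes, 5 translation factor genes and 4 cell wall genes. Over all genes tested, these lists hold 137, 21, 11, 42 and 36 genes. A further 41 of the 135 were on none of the 34 lists with members in the files, lists that leave out most of all genes tested. Frames not in the RefSeq table were 21, against 671 of all 6639 genes. Within 20000 bp of a chromosome end lay 0, against 260 of the 5968 genes in that table. The 135 lowest genes had another makeup. Of these, 11 were on the meiosis and sporulation list (64 tested) and 7 on the seripauperin list (30 tested). The thiamine list gave 3 (21 tested) and the hexose transporter list 2 (18 tested). On no list were 106, as are most of all genes tested, so this count does not set the low end apart. Not in the RefSeq table were 36, and 28 were subtelomeric.

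Ribosomal protein genes, whose products build the cytoplasmic ribosome, were dense without exception. All 137 were called above the median gene, with a median ratio of 2.96, against 0.00 over all genes tested. The list's median was 2.79 in WT replicate 1 and 3.13 in replicate 2, and each of the 137 genes was higher in replicate 2. The range ran from RPL8A at 4.42 to RPL15B at 1.26, the minor copy of a gene pair. For 51 of them the deposited value fits a short stretch of the gene only, and without these the median was 3.13.

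The other parts of the translation machinery were lower. Translation factor genes had a median of 1.66, with 39 of 42 called above and 3 below. The highest was HYP2, and the lowest was HEF3, a second copy of elongation factor 3, at -1.44 (Pol II coverage 46.5 and 29.8, against 150 and 172 in input). Genes of the small-subunit processome, which makes the 18S ribosomal RNA, had a median of 0.74, with 39 of 41 called above, from SNU13 at 2.56 to DHR2 at -0.39. Subunits of the 3 nuclear RNA polymerases had 0.89, with 30 of 31 called above, RPB5 the highest at 1.87 and RPC34 (-0.02, adjusted p = 0.76) not called. Mitochondrial ribosomal protein genes, which serve the separate ribosome of that organelle, had 0.25, with 51 of 67 called above, 3 below and 0 over 2-fold, from MRPL22 at 0.87 to MRPL33 at -0.36.

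**Figure D3:**
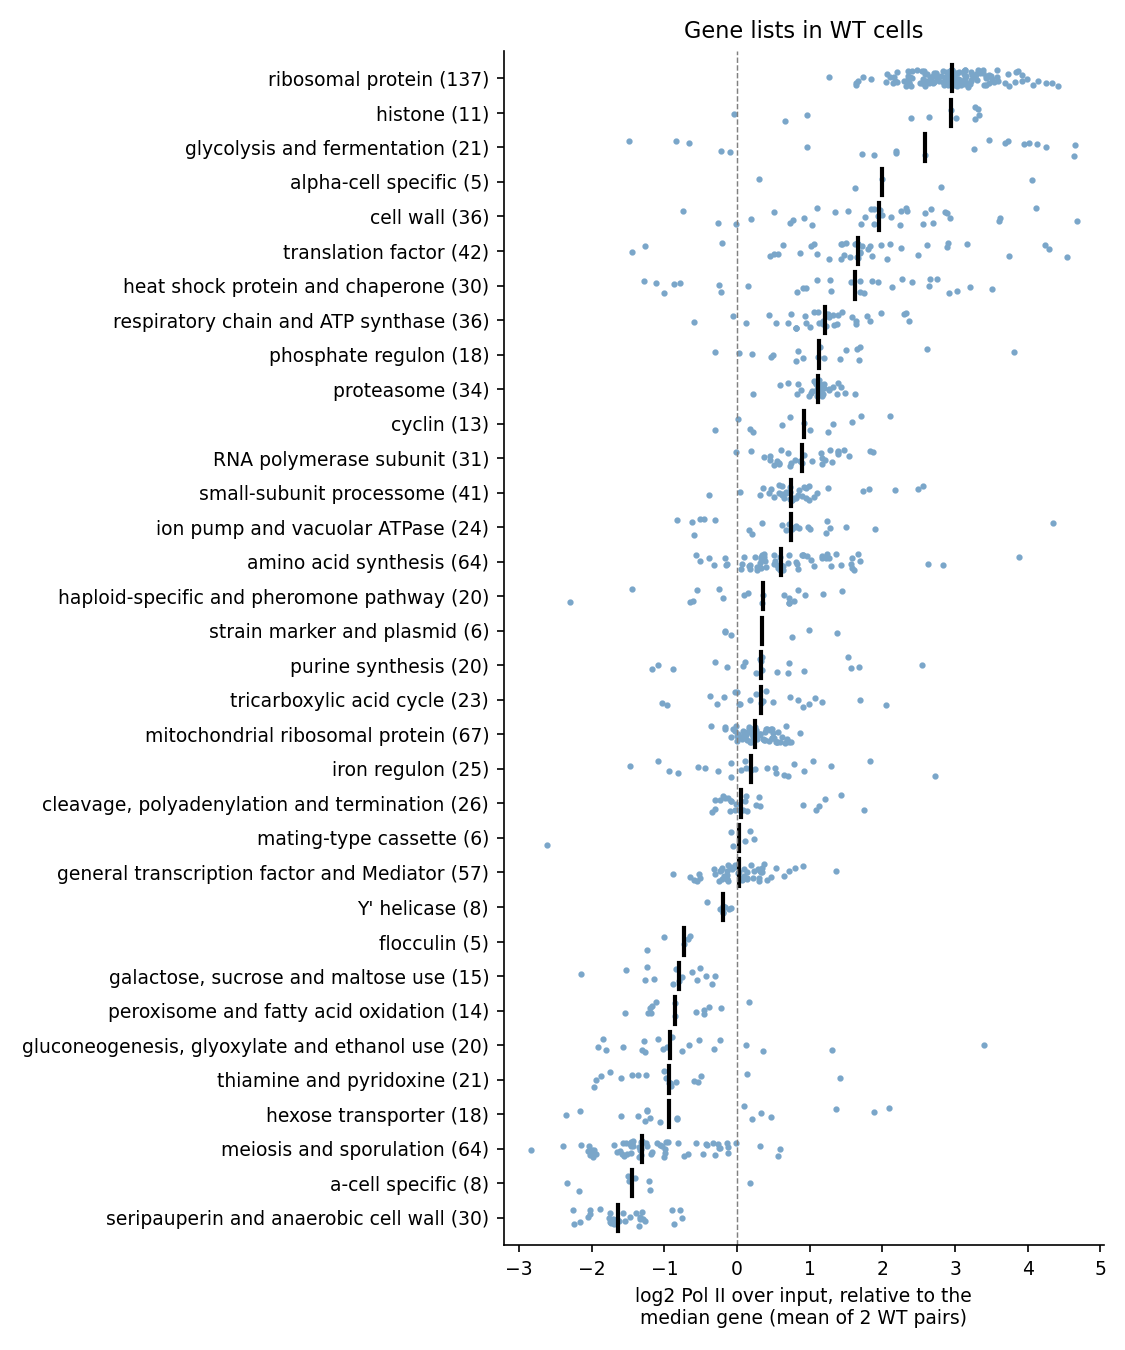
Mean Pol II over input of 2 WT pairs (horizontal axis, log2, relative to the median gene) for the members of each gene list, one point a gene, with a black bar at the list's median and the number of genes tested in brackets. Ribosomal protein and histone genes lie highest, at medians of 2.96 and 2.95, and seripauperin genes lowest, at -1.64.

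Histone genes split by kind. The 8 core histone genes, which supply chromatin during DNA replication, lay between 2.39 (HTA2) and 3.34 (HTA1). HTA1 (YDR225W, chromosome IV, 915530 to 915928) had a Pol II coverage of 827 and 1219, against 146 and 163 in input. HHF2, HHT2 and HTB1 had 3.31, 3.28 and 3.27, HHT1 and HHF1 3.01 and 2.95, and HTB2 2.64. Copies of a core histone are similar in sequence, so these values share reads to an unknown degree. The variant HTZ1 had 0.96 and the linker histone gene HHO1 0.66, both called, while CSE4, the centromeric variant, had -0.04 (adjusted p = 0.51). Of the 11 genes on the list, 10 were called above and 0 below.

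Genes of sugar metabolism differed widely although their functions are alike. Of the 21 genes of glycolysis and fermentation, 16 were called above the median gene and 4 below, with a median of 2.58. At the steps of pyruvate decarboxylase, pyruvate kinase and glucose phosphorylation, 1 gene was dense and its isozymes lay at or below the median. PDC5, a second pyruvate decarboxylase gene, had a Pol II coverage of 69.7 and 62.9, against an input coverage of 156 and 175, a ratio of -0.67 where PDC1 had 4.66. PDC6 had 39.3 and 25.8, against 133 and 153, a ratio of -1.48. The 3 TDH genes had 4.63 (TDH3), 3.26 (TDH2) and 0.97 (TDH1), and the enolase genes 4.25 (ENO2) and 2.19 (ENO1). Copies of TDH and of enolase are similar in sequence, so these values may share reads. The pyruvate kinase gene CDC19 had 4.02 ± 0.41 and its isozyme PYK2 had -0.83 ± 0.15. Among the enzymes that phosphorylate glucose, HXK2 had 2.58 ± 0.35, GLK1 -0.22 and HXK1 -0.10 ± 0.21 (adjusted p = 0.27). The alcohol dehydrogenase gene ADH1 had 4.13, and the single-copy genes FBA1, PGK1, GPM1, TPI1 and PGI1 had 3.94, 3.72, 3.69, 3.46 and 2.18. GPM1 was above PGK1 in replicate 1 and below it in replicate 2. PFK2 and PFK1, the 2 subunits of phosphofructokinase, were closer to the median, at 1.89 and 1.73.

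**Figure D4:**
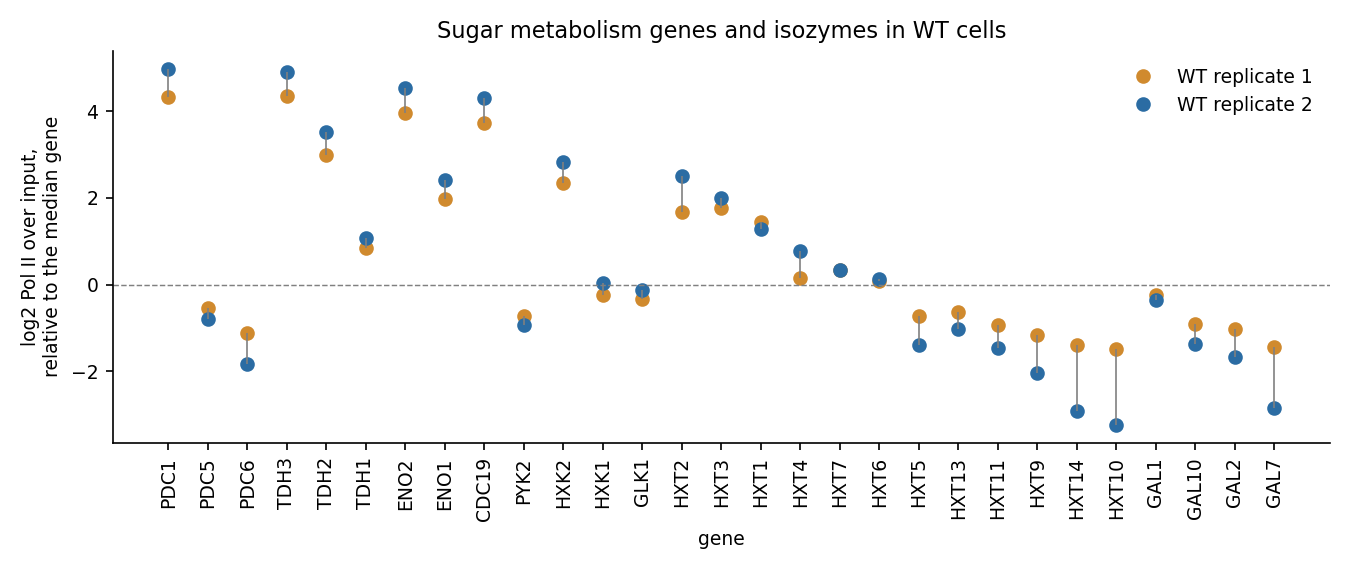
Pol II over input (vertical axis, log2, relative to the median gene) of isozymes, hexose transporters and galactose genes in WT cells, with orange and blue points for WT replicates 1 and 2. Isozyme genes such as PDC1 and PDC5 differ by far more than the replicates do, and the GAL genes lie below 0 in both.

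Hexose transporters, which bring glucose across the plasma membrane, were mostly low. Of 18 tested, 6 were called above and 10 below, and HXT17 did not reach the input minimum. HXT2, a high-affinity transporter (YMR011W, chromosome XIII, 288079 to 289704), was the densest, with a Pol II coverage of 336 and 664 in WT replicates 1 and 2, against 160 and 186 in input. Its ratio was 1.67 and 2.51. HXT3 had 1.88 ± 0.16 and HXT1, a low-affinity transporter, 1.37 ± 0.11. HXT2 was the higher of HXT2 and HXT3 in replicate 2 and the lower in replicate 1, so their order is not resolved. HXT4 had 0.46, with 0.15 and 0.77 in the 2 pairs. HXT7 had 0.33 and HXT6 0.10 (adjusted p = 0.11), and these near-identical neighbours share reads. The sensor genes RGT2 and SNF3 had 0.20 and -1.27. HXT5, HXT8, HXT9, HXT10, HXT11, HXT13, HXT14, HXT15 and HXT16 lay between -2.36 and -0.83, of which HXT10 was not called (adjusted p = 0.074). HXT14 had -1.39 in replicate 1 and -2.93 in replicate 2, and HXT10 -1.48 and -3.24.

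Genes for other sugars were low in all cases. All 15 galactose, sucrose and maltose genes were called below the median gene, with a median of -0.80. The 3 clustered galactose enzyme genes on chromosome II were not equal. GAL1, the galactokinase gene (YBR020W, 279021 to 280607), had a Pol II coverage of 81.5 and 83.1 in WT replicates 1 and 2, against an input coverage of 149 and 172, a ratio of -0.31 ± 0.08. GAL10, the epimerase gene, had 49.9 and 38.9, against 145 and 164, a ratio of -1.14 ± 0.33. GAL7, the transferase gene (YBR018C, 274427 to 275527), had 35.6 and 13.6, against 151 and 167, ratios of -1.44 and -2.85 (mean -2.14 ± 0.99). The order was the same in both replicates, GAL1 above GAL10 above GAL7. The permease gene GAL2 had -1.36, the regulators GAL80, GAL4 and GAL3 had -0.43, -0.50 and -1.24, and SUC2, the invertase gene, had -0.88. The MAL genes MAL11, MAL12, MAL13, MAL31, MAL32 and MAL33 lay between -0.85 and -0.35, the isomaltase genes IMA1 and IMA2 had -1.27 and -1.53, and their copies at different loci share sequence.

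Genes for growth without glucose were also low as a group, with exceptions. Of 20 genes for gluconeogenesis, the glyoxylate cycle and ethanol use, 16 were called below and 4 above, with a median of -0.93. The markers of respiring cells gave -0.24 for FBP1, -1.09 for JEN1 and -1.57 for PCK1, all called below, and 0.36 for ICL1 and 1.30 for ADH2, both called above. ADH2 (Pol II coverage 210 and 276, against 144 and 160 in input) is a close paralog of the dense ADH1, so part of its reads may be shared. ALD6, a cytosolic aldehyde dehydrogenase that makes acetate during fermentation, stood far above the rest of the list at 3.40 ± 0.40, and YAT1, a carnitine acetyltransferase gene, was lowest at -1.91. Peroxisome and fatty acid oxidation genes had a median of -0.85, with 13 of 14 called below. CTA1, peroxisomal catalase, was called above at 0.17, and PXA1, a fatty acid transporter gene, was lowest at -1.55. The list of tricarboxylic acid cycle genes, which also holds isozymes that act outside the cycle, had a median of 0.32, with 14 of 23 called above and 5 below. Its ends, CIT2 at 2.04 and IDP3 at -1.03, are such isozymes. Nuclear genes of the respiratory chain and ATP synthase had 1.20, with 33 of 36 called above and 1 below. CYC1, cytochrome c, was highest of the respiratory genes at 2.36, and NDE2 lowest at -0.59.

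Cell wall protein genes were dense, with 32 of 36 called above and 2 below, and a median of 1.95. After CCW12 came HSP150 at 4.11, CWP2 at 3.62 and SED1 at 3.61, which encode wall mannoproteins. SPI1, a wall protein gene known from stationary phase, was lowest at -0.74. Another family of wall proteins was at the other end. All 30 seripauperin and anaerobic cell wall genes, induced in yeast without oxygen, were called below, with a median of -1.64 (-1.07 in replicate 1 and -2.20 in replicate 2). Their median Pol II coverage was 40.4 in replicate 1 and 18.3 in replicate 2. TIR4 was highest at -0.76 and PAU20 lowest at -2.25, with -1.31 and -3.19 in the 2 pairs (Pol II coverage 33.3 and 8.47, against 129 and 137 in input). The 5 flocculin genes, whose products bind cells to each other, were also all called below, between -1.25 (FLO10) and -0.64 (FLO5). PAU genes are near-identical to each other, so single members are uncertain.

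Chaperone genes lay on both sides of the median. Of 30 heat shock protein and chaperone genes, 23 were called above and 7 below, with a median of 1.63. The Hsp70 gene SSA2 was highest at 3.50. The 7 below the median were HSP42, SSA3, SSA4, HSP30, SSE2, HSP26 and HSP12, from -0.23 to -1.28, named here after their values were seen. HSP12 had a Pol II coverage of 55.3 and 29.6, against an input coverage of 149 and 164. The proteasome, which degrades marked proteins, was a tight list. All 34 genes were above 0 and called, with a median of 1.11 and 25% and 75% quantiles of 1.04 and 1.20. PRE7 was highest at 1.62, and PRE3, whose value fits a short stretch only, was lowest at 0.22.

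Nutrient regulons lay between these ends. Amino acid synthesis genes had a median of 0.60, with 54 of 64 called above and 6 below, from ILV5 of branched-chain synthesis at 3.88 to MET3 of sulfate assimilation at -0.57. Purine synthesis genes had 0.33, with 13 of 20 called above and 4 below, from IMD4 at 2.54 to ADE17 at -1.17. Iron regulon genes had 0.19, with 13 of 25 above and 7 below, from FRE1, a metal reductase, at 2.73 to FIT1, a wall mannoprotein, at -1.47. Thiamine and pyridoxine genes were low, with a median of -0.93 and 19 of 21 called below. THI5 was lowest at -1.97 (-1.43 and -2.51 in the 2 pairs), and PHO3, an acid phosphatase gene that is also on the phosphate list, was highest at 1.41. Ion pump and vacuolar ATPase genes had 0.74, with 18 of 24 called above and 6 below, TRK2 being lowest at -0.83. Cyclin genes had 0.92, with 11 of 13 above and 1 below, CLN3 being highest at 2.11 and CLB4 lowest at -0.30.

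General transcription factors, Mediator and the factors that end transcripts lay near the median as lists. General transcription factor and Mediator genes had a median of 0.03, with 22 of 57 called above and 21 below. The gene for the TATA-binding protein, SPT15, was highest at 1.37, and SSN2, a Mediator kinase-module subunit, was lowest at -0.88. Cleavage, polyadenylation and termination genes had 0.05, with 11 of 26 above and 6 below. NRD1, which acts in termination of short transcripts and is known in yeast to limit its own mRNA, was highest at 1.75, and CFT1 lowest at -0.35.

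Mating-type genes matched the labelled type, alpha. MF(ALPHA)1, the main alpha-factor gene (YPL187W, chromosome XVI, 193648 to 194145), had a Pol II coverage of 1320 and 2083 in WT replicates 1 and 2, against an input coverage of 149 and 161, a ratio of 4.06 ± 0.44. MF(ALPHA)2 had 2.30 and 3.30 (mean 2.80 ± 0.70), AFB1 1.99, STE3, the receptor for a-factor, 1.63, and SAG1 0.30. All 5 were called above. Of the 8 genes on the a-cell list, 7 were called below. MFA1, which encodes a-factor (YDR461W, chromosome IV, 1385176 to 1385286), had a Pol II coverage of 19.7 and 9.28, against an input coverage of 116 and 112, ratios of -1.89 and -2.78 (mean -2.34 ± 0.63, adjusted p = 0.0016). AGA2 had -1.48 in replicate 1 and -2.88 in replicate 2. AGA2, MFA2, BAR1, STE2, STE6 and ASG7 had means of -2.18, -1.50, -1.49, -1.40, -1.21 and -1.20. AXL1, the other gene on that list, encodes a protease that acts in a-factor processing and was called above at 0.18. Haploid-specific and pheromone pathway genes, used by both mating types, had a median of 0.35, with 12 of 20 called above and 6 below, from FAR1, a cell-cycle inhibitor that acts in mating, at 1.44 to FIG1 at -2.31 (-1.50 and -3.11 in the 2 pairs).

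The mating-type cassettes on chromosome III could be separated in part. HMRA1, a gene of the silent HMR locus, had a Pol II coverage of 35.9 and 4.91, against 143 and 138 in input, a ratio of -2.62 ± 1.78. It was among the lowest genes but was not called (adjusted p = 0.32), and its value fits a short stretch only. The active genes MATALPHA1 and MATALPHA2 had -0.08 (adjusted p = 0.19) and 0.18, and the silent HMLALPHA1 and HMLALPHA2 had -0.05 (adjusted p = 0.43) and 0.11 (adjusted p = 0.084). Active and silent alpha copies share their sequence and cannot be told apart. HMRA2 had 0.23, and part of its sequence is also shared with alpha cassettes.

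Genes of meiosis and sporulation, which haploid cells growing on glucose do not use, gave the largest set of low genes. Of 64 genes, 55 were called below and 3 above, with a median of -1.32 (-0.93 in replicate 1 and -1.66 in replicate 2). Their median Pol II coverage was 49.2% of the median gene's in WT replicate 1 and 29.9% in replicate 2, while in input it was 96.0% and 95.9%. The meiotic markers IME1, IME2 and SPO11 had -1.47, -1.33 and -1.32, and NDT80 and SPS4 were nearer the median at -0.33 and -0.46. HOP2, which pairs meiotic chromosomes (YGL033W, chromosome VII, 435625 to 436401), was lowest. It had a Pol II coverage of 31.8 in replicate 1 and 4.16 in replicate 2, against 123 and 168 in input, ratios of -1.32 and -4.36, and its value fits a short stretch only. It was not called (adjusted p = 0.54), and neither was SAE3 at -2.39 (adjusted p = 0.12). The 3 genes above the median were IME4, SWM1 and MER1, at 0.60, 0.56 and 0.31.

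The 12 lowest named genes had ratios between -2.84 and -2.25, and MFA1 alone was called. The others were HOP2, HMRA1, RRT7, IRC18, ANS1, SAE3, HXT10, ECM23, FIG1, DPA10 and PRM6, with adjusted p between 0.052 and 0.54. These calls changed with the model and the libraries. All 12 were called without the mean-variance trend (adjusted p up to 0.021), with quantile-normalized ratios (up to 0.0005) and without pairing by replicate number (up to 0.028). Without WT replicate 1, 8 were called, and without Pcf11-13 replicate 2, or with the WT pairs fitted alone, 0 were, with adjusted p of at least 0.058 and 0.53. FIG1 and PRM6 are pheromone-induced genes. Of the 12 genes, 7 other than HXT10 and MFA1 were not found to fit a stretch of at most 300 bp. DPA10 among them, at 264 bp, was too short for this search. Pol II coverage of the 7 was 27.4 to 39.2 in replicate 1 and 8.53 to 13.8 in replicate 2. Input coverage of the same genes was 137 to 193 over both libraries. Low ratios came with low precipitated coverage in both replicates, and the size of the deficit differed between them.

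Where a gene lay on its chromosome went with its ratio. The 260 genes within 20000 bp of the outermost annotated gene end had a median of -0.64, with 30 called above and 193 below, against 0.03 for 5708 genes farther in. The lowest zone was 5000 to 10000 bp from the end, with a median of -1.19 over 66 genes, of which 57 were called below. The outermost 5000 bp had -0.32 over 68 genes, and this zone holds repeated families such as the Y' helicases, whose 8 members had a median of -0.20, from YRF1-4 at -0.09 to YRF1-3 at -0.42. From 20000 to 50000 bp the median was -0.17. The short chromosomes I and VI had medians of -0.31 and -0.24, and the other 14 lay between -0.17 and 0.08. No test was run on these classes, in which genes share neighbours.

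Gene length and neighbours showed smaller differences. The top decile had a median length of 906.5 bp and the lowest decile 909 bp, while deciles between them reached 1476 bp. Genes of 600 to 1000 bp had the highest median, 0.18, and genes over 3000 bp the lowest, -0.15. The neighbour classes leave out genes that are themselves in the top decile. Genes convergent with a top-decile gene, with ends within 300 bp, had a median of 0.33 over 121 genes, against -0.09 over 1742 genes convergent with another gene. Genes upstream of a top-decile gene on the same strand had 0.34 over 40 genes, against -0.18. Genes downstream of one had 0.15 over 40 genes, against -0.06. Divergent neighbours of a top-decile gene had 0.23 over 21 genes, against -0.16. Reads at gene ends can belong to either neighbour, and the part of this in the differences was not tested. Genes within 500 bp of a transfer RNA gene, which Pol III transcribes, had -0.06, against 0.01.

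Some genes had many copies in the input. In all, 18 had an input coverage over 3 times the median in both WT libraries. The 7 frames with over 20 times the median have YLR154 names, which lie in the ribosomal DNA repeat, the template of Pol I. TAR1 was at 90.2 and 90.5 times the median input in WT replicates 1 and 2, and its Pol II coverage was 5565 and 3192. Its ratio was -1.06, and all 7 frames were called below, between -1.52 and -1.06. CUP1-1, a metallothionein gene in a tandem repeat, had 7.76 and 7.56 times the median input and a ratio of -0.13 (adjusted p = 0.12). LEU2, carried on the plasmid besides the chromosomal allele, had a Pol II coverage of 237 and 285, against 426 and 486 in input, or 2.95 and 3.04 times the median input. Its ratio was -0.17. PCF11 had 1.45 and 1.53 times the median input and a ratio of -0.17 ± 0.03, so per copy of its DNA it was slightly below the median gene. The other marker genes gave 1.37 for URA3, 0.99 for HIS3, 0.76 for TRP1 and -0.08 for ADE2 (adjusted p = 0.19). The labels give mutant alleles of URA3, HIS3 and ADE2, and for TRP1 a deletion of the gene together with a TRP1 marker at the pcf11 deletion.

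The 2 WT replicates differed over phosphate genes by more than their difference in range. Phosphate regulon genes serve uptake and storage of phosphate and are known to be induced when it is scarce. Their median ratio was 0.68 in WT replicate 1 and 1.55 in replicate 2, and 18 of 18 were higher in replicate 2. Set against the median difference of genes in the same decile of the ranking, 17 of 18 were still higher in replicate 2, by a median of 0.30. PHO84, the high-affinity phosphate transporter (YML123C, chromosome XIII, 24037 to 25800), had a Pol II coverage of 1147 and 2228, against 167 and 185 in input, ratios of 3.38 and 4.26. PHO89, a second transporter gene, had ratios of -0.81 and 0.21 and was not called (adjusted p = 0.12). The genes PHO5, PHO11, PHO12, SPL2 and PHM6, picked here after their values were seen, had ratios of 1.29, 0.65, 0.57, 1.01 and 0.72 in replicate 1 and 2.06, 1.64, 1.64, 1.98 and 1.67 in replicate 2. Of the 18 genes, 16 were called above the median gene and 0 below. The list's median was 1.13 in Pcf11-13 and 0.72 in Pcf11-DNL, so the WT replicates spanned both. The 5 alpha-specific genes exceeded their decile by a similar median, 0.34, and other lists departed too. Flocculin genes exceeded theirs by 0.25 (5 of 5), Y' helicase genes by 0.22 (8 of 8) and glycolysis genes by 0.17 (20 of 21). Seripauperin genes lay lower, by a median difference of -0.30, with 5 of 30 above their decile. So did mating-type cassette genes by -0.20 (0 of 6) and proteasome genes by -0.15 (2 of 34). The lowest decile, which held 26 of the 30 seripauperin genes, was wide, from -3.08 to -0.97. The seripauperin median was 0.321-fold the median gene, against 0.381-fold for that decile. The top decile, which held 15 of the 21 glycolysis genes, was wide too, from 1.23 to 4.67. The glycolysis median was 5.98-fold the median gene, against 3.99-fold for that decile. For both lists the match by decile may thus not remove the difference in range.

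**Figure D5:**
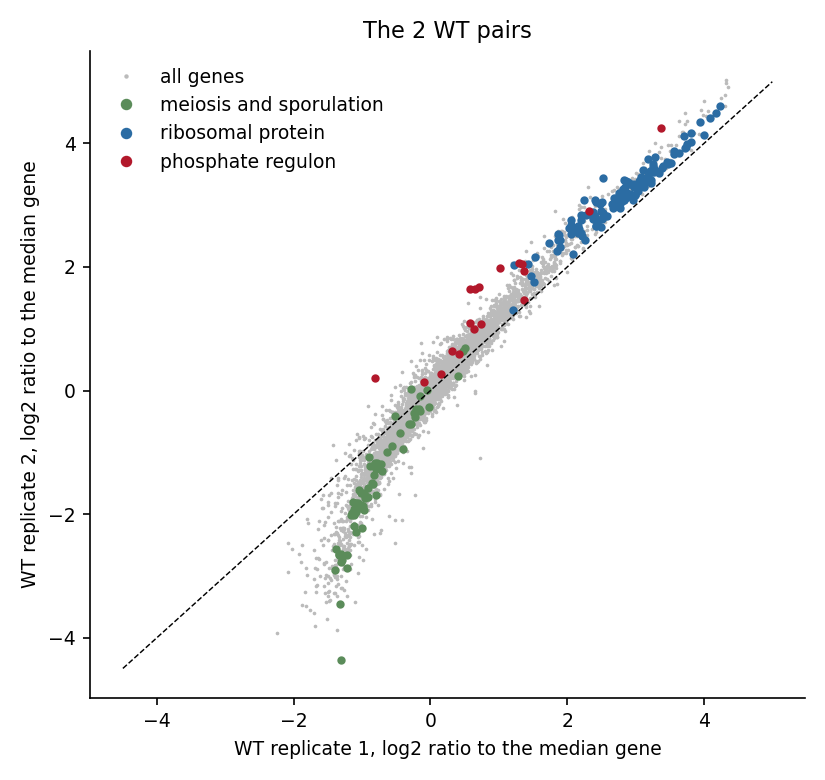
Ratio of each gene (log2, relative to the median gene) in WT replicate 1 (horizontal axis) and WT replicate 2 (vertical axis), with all genes in grey and the dashed line marking equal values. Meiosis and sporulation genes (green) lie below the line except for a few, ribosomal protein genes (blue) above it, and phosphate regulon genes (red) above it in 18 of 18 cases.

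The landscape was largely shared with the other strains. Of the 2848 genes above the median gene in WT, 2693 were also called above in Pcf11-13, which had 2880, and 2744 in Pcf11-DNL, which had 2841. The 3 strains were fitted together and share 1 estimate of the spread. Ribosomal protein genes had 2.90 in Pcf11-13, 2.83 in Pcf11-DNL and 2.96 in WT, and meiosis genes -1.55, -1.17 and -1.32. In the test of the difference, 108 genes were higher in Pcf11-13 than in WT (1.63%) and 16 lower (0.241%); before adjustment 852 genes had p under 0.05. Between Pcf11-DNL and WT 2 genes were higher (0.0301%) and 0 lower in the limma fit; before adjustment 140 genes had p under 0.05. These counts, and the balance of directions, moved widely with the libraries used. Pcf11-13 had 207 higher and 91 lower genes without WT replicate 1, and 493 higher and 412 lower without WT replicate 2. Pcf11-DNL had 83 higher and 97 lower without the first, and 6 and 5 without the second. Both contrasts use the same WT libraries.

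Among WT-dense genes, HXT1 was lower in a mutant. FRE1, denser in WT, had a difference of -1.36 between Pcf11-13 and WT that was not called in the limma fit (adjusted p = 0.054). The values that follow are those of HXT1. Its ratio was -0.03 and 0.08 in Pcf11-13, 0.76 and 0.99 in Pcf11-DNL, and 1.45 and 1.29 in WT. The difference between Pcf11-13 and WT was -1.34 (SE 0.10, adjusted p = 1.2e-04), and that between Pcf11-DNL and WT was -0.49 and not called (adjusted p = 0.57). PCF11 itself had 1.46 and 1.68 in Pcf11-13, -0.18 and -0.18 in Pcf11-DNL, and -0.18 and -0.15 in WT. It is carried on a plasmid that differs between the strains, so allele and plasmid cannot be told apart. The 12 densest named WT genes include none called in either contrast. Their differences had SEs from 0.41 (RPL3) to 0.56 (CCW12), against 0.10 for HXT1, so a difference as large as that of HXT1 could go uncalled there.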

How the data were processed

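The deposited values are mean read coverage per gene, a signal that the authors did not scale to depth. Per the submitters' processing notes the build was sacCer3, and the tools included deepTools 3.1.2, BWA 0.7.17-r1188 and Trimmomatic 0.38. Their roles, and how a gene's mean was formed, are not given in the sources used here. Values times gene length were whole (within 0.0006 per base) for 139 of 141 short Watson genes and 51 of 150 Crick ones (at most 300 bp). A further 131 longer genes, 121 of them Watson, fitted a stretch of at most 300 bp, and these are named as fitting a short stretch. Longer stretches were not searched for, so genes not named so may also hold part-gene values, in particular Crick ones. Reads per value are unknown, so there are no counting intervals. Of 6650 genes, 5976 matched a RefSeq locus tag of assembly R64 and 674 did not.

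For each pair of libraries, log2(Pol II + 1) minus log2(input + 1) was centred at the median gene. Genes with input of at least 25% of the library median in both WT inputs were kept. Of the 11 left out, 4 had 0 coverage in all 12 libraries. All 6 pairs entered a group-means model of the 3 strains in limma 3.58.1 (R 4.3.3), with trended variances, Benjamini-Hochberg adjustment over all genes and calls at 0.05, and was tested on simulated data. Each Pol II library was paired with the input of its replicate number, since per the labels' protocols input was an aliquot of the sample. Deviations of same-numbered Pol II and input libraries correlated by 0.20 for Pcf11-13, -0.08 for Pcf11-DNL and 0.05 for WT. A call against the median gene says nothing of absolute occupancy.

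Genes, lists and tests were chosen with earlier results of these data known. Named were the 12 highest and 12 lowest genes with symbols, the highest and lowest of each list, all members of the sugar, mating-type, histone and marker lists, and up to 5 rises and falls per mutant. A further gene that meets this rule is not reported here. Lists are described by counts and medians, without a set test. RPP1, an RNase P subunit, was taken off the ribosomal protein list. Alternatives changed the centre, range, pseudocount, filter, trend, pairing and libraries.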

Additional observations from a re-analysis of the deposited data

Results flagged for a closer look

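Some genes named for the WT landscape had a different ratio in a mutant by the limma test of the difference (log2, mutant minus WT), with 108 genes higher and 16 lower in Pcf11-13 over the whole table. In Pcf11-13 the ratio was higher over PCF11 by 1.74, over PAM16, a subunit gene of the mitochondrial import motor, by 1.46, over VMA9 (a value that fits a short stretch) by 1.07, over HIS4 by 1.05, over URA2 by 0.97, over TIR4 by 0.65 and over HXK1 by 0.55 (adjusted p = 0.048). It was lower over CHA1, of serine and threonine breakdown, with a difference of -1.51, over HXT1 with -1.34, over the sporulation genes SPS4 and CRR1 with -1.21 and -1.07, and over LEU2 with -0.54. PCF11 and LEU2 are carried on plasmids that differ between the strains, so for these genes allele and plasmid cannot be told apart. CHA1 had -1.57 and -1.29 in Pcf11-13, against 0.39 and -0.24 in WT, so the WT pairs lay on both sides of the median gene. CRR1 lies beside FRE1 on chromosome XII, and whether the fall over CRR1 belongs in part to FRE1 was not tested.

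The frames YMR194C-A and YDR042C, chosen after their values were seen, were the only 2 genes called in both contrasts. YMR194C-A was higher by 1.86 in Pcf11-13 (adjusted p = 4.9e-05) and by 1.15 in Pcf11-DNL (adjusted p = 0.012), and its ratio was 0.68 and 0.68 in WT. YDR042C was higher by 1.23 in Pcf11-13 and by 0.79 in Pcf11-DNL (adjusted p = 0.037), and lay at -0.19 and -0.46 in WT. The contrasts share their WT libraries. These results rest on 2 pairs a strain.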

How the results depend on the processing

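Counts of genes above, below and over 2-fold above the median gene in WT stayed within 1.5 times of 2848, 2762 and 867 under all alternatives but 2. Centring each pair on the meiosis and sporulation list in place of the median gene moved the median of all genes up by 1.30, and gave 5939, 214 and 4420. Keeping Watson-strand genes alone, an alternative chosen after seeing the data, gave 1432, 1394 and 453, since fewer genes were tested. Leaving out a pair gave 2705 to 2828 above, 2536 to 2780 below and 765 to 988 over 2-fold. Pairing by replicate number mattered little for the WT counts: without the replicate block 2789 genes were above and 2859 below. At the silent end, all 12 of the lowest named genes were called without the block, against MFA1 alone with it. The fit without the block also took Pol II and input libraries singly, and so estimated the spread in another way. With pairing kept but no mean-variance trend, all 12 were called as well. The part of pairing itself was not tested. Without the block, the 124 genes that differed between Pcf11-13 and WT became 71 and the 2 between Pcf11-DNL and WT became 1.

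The contrasts with the mutants depended on the setting. For Pcf11-13 the count was 6 with the meiosis list as centre (1 higher, 5 lower), 7 without the mean-variance trend (5 and 2), 25 with Watson-strand genes, 190 with pairs scaled to one SD (146 and 44) and 203 with quantile normalization (154 and 49). Leaving out a pair gave 28 to 905, with 298 without WT replicate 1 (207 higher, 91 lower), 905 without WT replicate 2 (493 and 412), and 28 and 35 without Pcf11-13 replicates 1 and 2, where a lone pair is assumed to vary like the others. For Pcf11-DNL the count was 0 with the meiosis list as centre, without the trend, with Watson-strand genes and without both narrow-range libraries (WT replicate 1 and Pcf11-DNL replicate 2), and 1 with quantile normalization. Leaving out a pair gave 0 to 180, with 180 without WT replicate 1 (83 higher, 97 lower), 11 without WT replicate 2 and 0 without Pcf11-DNL replicate 1. The cause was not tested.

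With the meiosis list as centre, 56 of 177 named genes and 7 of 34 list medians were no longer below 0, which follows from the upward shift. The genes were HSP12 0.013, SNF3 0.023, IMA1 0.027, FLO10 0.051, HXT15 0.054, HXT16 0.054, GAL3 0.058, STE6 0.090, ASG7 0.10, HXT11 0.10, ADE17 0.13, GAL10 0.15, TAR1 0.23, HXT5 0.24, IDP3 0.27, SUC2 0.41, SSN2 0.41, MAL13 0.45, PYK2 0.46, TRK2 0.47, HXT8 0.47, HXT13 0.47, MAL11 0.49, MAL33 0.53, TIR4 0.54, SPI1 0.55, PDC5 0.63 and FLO5 0.65, and MAL12 0.67, NDE2 0.70, MET3 0.72, MAL32 0.75, GAL4 0.79, SPS4 0.83, GAL80 0.86, YRF1-3 0.88, DHR2 0.91, MRPL33 0.93, MAL31 0.94, CFT1 0.95, YDR042C 0.97, GAL1 0.99, PHO89 0.99, CLB4 0.99, GLK1 1.07, PCF11 1.13, LEU2 1.13, CRR1 1.17, CUP1-1 1.17, HXK1 1.19, YRF1-4 1.21, MATALPHA1 1.21, ADE2 1.22, HMLALPHA1 1.25, CSE4 1.26 and RPC34 1.28. The list medians were 0.35 for hexose transporters, 0.36 for thiamine, 0.37 for gluconeogenesis, 0.44 for peroxisome, 0.49 for galactose, sucrose and maltose, 0.56 for flocculin and 1.10 for Y' helicase genes. Leaving out each pair in turn turned the sign of 7 genes and 1 list near 0. The ranges were -0.24 to 0.39 for CHA1, -0.28 to 0.029 for CRR1, -0.25 to 0.041 for HXK1, -0.81 to 0.21 for PHO89, -0.055 to 0.015 for RPC34, -0.13 to 0.026 for HMLALPHA1, -0.28 to 0.032 for CUP1-1 and -0.051 to 0.11 for the mating-type cassette median. Without both narrow-range libraries CHA1 was at -0.24, CRR1 at 0.029, HXK1 at 0.041, PHO89 at 0.21 and the cassette median at -0.051, and with Watson-strand genes that median was -0.049.

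Limits: the depth behind a value is unknown, 2 pairs a strain carry each test, promoter motifs were not run, and the sizes of the lowest ratios rest on the pair chosen.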
